A study of Mus musculus with 2 samples.

Results

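The genes described here were 10 of the 32285 genes in the count tables: the receptors Notch1, Notch2, Notch3 and Notch4, the ligands Dll4, Jag1 and Jag2, and the target genes Hey1, Heyl and Hes1. They were chosen by name as a textbook core of the Notch pathway, with earlier results of these data known. All 10 had unique molecular identifiers (UMIs, each marking a captured RNA molecule) in both libraries. The data were 2 single-cell RNA sequencing libraries of the temporomandibular joint (TMJ, the jaw joint) of wild-type C57BL/6 mice, labelled as 8 to 10 weeks old, 1 from joints injected with PBS and 1 from joints injected with CFA (complete Freund's adjuvant, an inflammatory mixture). According to the methods, these were female mice injected at 8 weeks of age on both sides, the joints of each group were collected 3 weeks later and digested in a shared tube with the surrounding bone, muscle and ligament, and beads were used to take out CD45+ immune cells. With 1 library per condition there was no replicate check, no p-value was computed, and the animal, the joint and the library cannot be told apart. Every interval below is an exact 95% interval that covers counting error only.

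In Notch signalling, a ligand on the surface of a cell binds a Notch receptor on its neighbour. The receptor is then cut by ADAM proteases and gamma-secretase, and its freed intracellular domain joins the DNA-binding protein RBPJ in the nucleus and switches on genes of the Hes and Hey families of repressors. In vessels, DLL4 and NOTCH1 or NOTCH4 are known for arterial specification and for the restraint of sprouting. JAG1 on endothelium and NOTCH3 on neighbouring mural cells (smooth muscle cells and pericytes) are known for the maturation of the vessel wall.

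After cells with fewer than 500 genes, over 10% mitochondrial UMIs or over 1% hemoglobin UMIs were left out, 2667 PBS and 4014 CFA cells remained, with medians of 7022 and 6509.5 UMIs per cell and 27201994 and 44432717 UMIs in all. The hemoglobin limit alone removed 54.4% of the PBS cells and 7.79% of the CFA cells that had passed the other limits. The 10 genes had 12927 UMIs in PBS cells and 20678 in CFA cells. Of 35 clusters, 31 were named from marker genes, and neither the 10 genes nor 53 further Notch pathway genes were used to cluster the cells. The naming used none of the 10 genes either, although Pdgfrb stood in both the mural marker list and the pathway list. The arterial, venular, smooth muscle and pericyte clusters each met between 7 and 9 of their own subtype markers, while the sublining fibroblast cluster met only 3, the fewest allowed. The leading genes of the pericyte cluster also included Actg2 and Cnn1, which stood in the smooth muscle marker list. The libraries shared 10 barcode sequences, 2 of them among kept cells, and leaving these cells out moved none of the 11 ratios that were recomputed without them beyond its counting interval.

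There were 127 PBS and 166 CFA arterial endothelial-like cells, 538 and 715 capillary-like, 84 and 170 venular-like, 98 and 156 smooth muscle-like and 87 and 66 pericyte-like cells. Fibroblast-like cells numbered 535 and 380, of which 133 and 162 were adventitial-like, 201 and 136 sublining-like, and 172 and 75 of no subtype. Despite the depletion, 72 PBS and 352 CFA neutrophil-like cells and 302 CFA macrophage-like cells remained. Levels are given in CPM, the UMIs of a gene among 1000000 UMIs of the cell type, and only where the type had at least 50 cells in the library. That leaves out lining fibroblast-like, lymphatic-like, osteoblast- or osteocyte-like and mast cell- or basophil-like cells in both libraries. It also leaves out macrophage-like and osteoclast-like cells in the PBS library. Levels of single clusters are also given below, some of them from fewer cells. These are counts from the 3′ end of transcripts, so that levels are compared within a gene and not between genes.

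**Figure D1:**
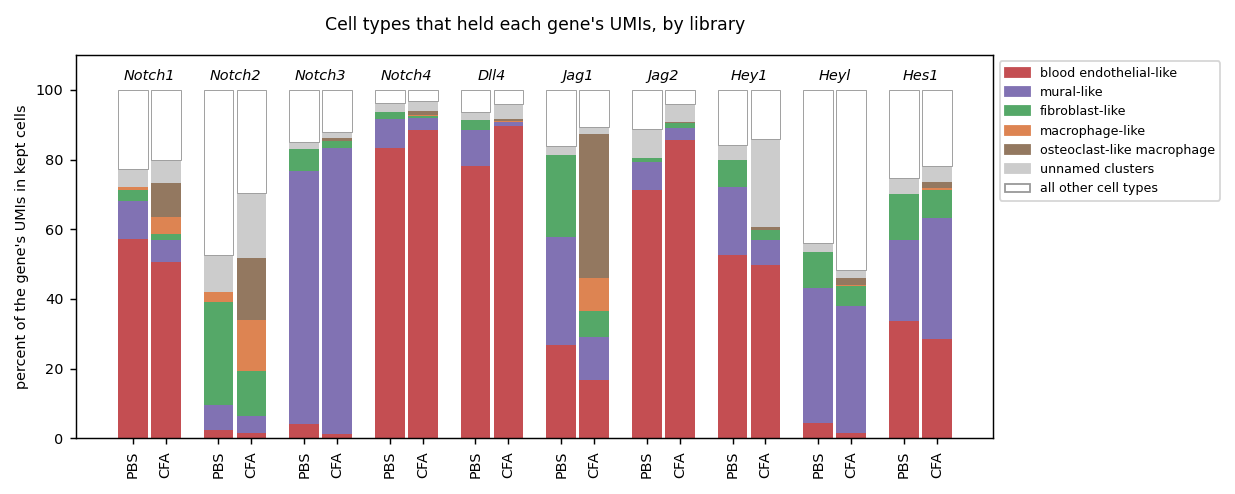
Percent of each gene's UMIs (vertical axis) that lay in each class of kept cells, with a PBS and a CFA bar per gene. The red part shows blood endothelial-like cells, with 83.4% and 88.6% of Notch4 UMIs but only 2.29% and 1.51% of Notch2 UMIs, the purple part shows mural-like cells, with 72.7% and 82.2% of Notch3 UMIs, and the brown part shows osteoclast-like macrophages, with 41.4% of the CFA library's Jag1 UMIs.

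The 10 genes differed in how their UMIs were shared among the layers of the vessel wall and the cells outside it. Blood endothelial-like cells held 21.1% (PBS) and 15.6% (CFA) of all UMIs, yet 83.4% and 88.6% of those of Notch4, 78.0% and 89.6% of Dll4, 71.4% and 85.6% of Jag2, 57.3% and 50.5% of Notch1, and 52.7% and 49.7% of Hey1. Mural-like cells held 7.66% and 5.10% of all UMIs but 72.7% and 82.2% of Notch3, 39.0% and 36.5% of Heyl, and 23.1% and 34.7% of Hes1. Notch2 lay mostly outside the vessels. The cell type with the highest level was the same in both libraries for 8 of the 10 genes. It was the arterial endothelial-like cells for Notch1, Notch4, Dll4, Jag2 and Hey1, the smooth muscle-like cells for Notch3 and Hes1, and the satellite cell-like cells (muscle stem cells) for Heyl, whereas the leading type differed between the libraries for Notch2 and Jag1. Under 12 other settings the leading type of Jag1 in the PBS library was the arterial endothelial-like cells, as in the CFA library, in 2 settings, at 179 CPM with log-normalized counts and at 244 with each cell classed alone. Classing each cell alone also put smooth muscle-like cells first for PBS Heyl (102 CPM) and adventitial-like cells first for PBS Notch2 (137), and without the hemoglobin limit pericyte-like cells were first for CFA Notch3 (919).

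**Figure D2:**
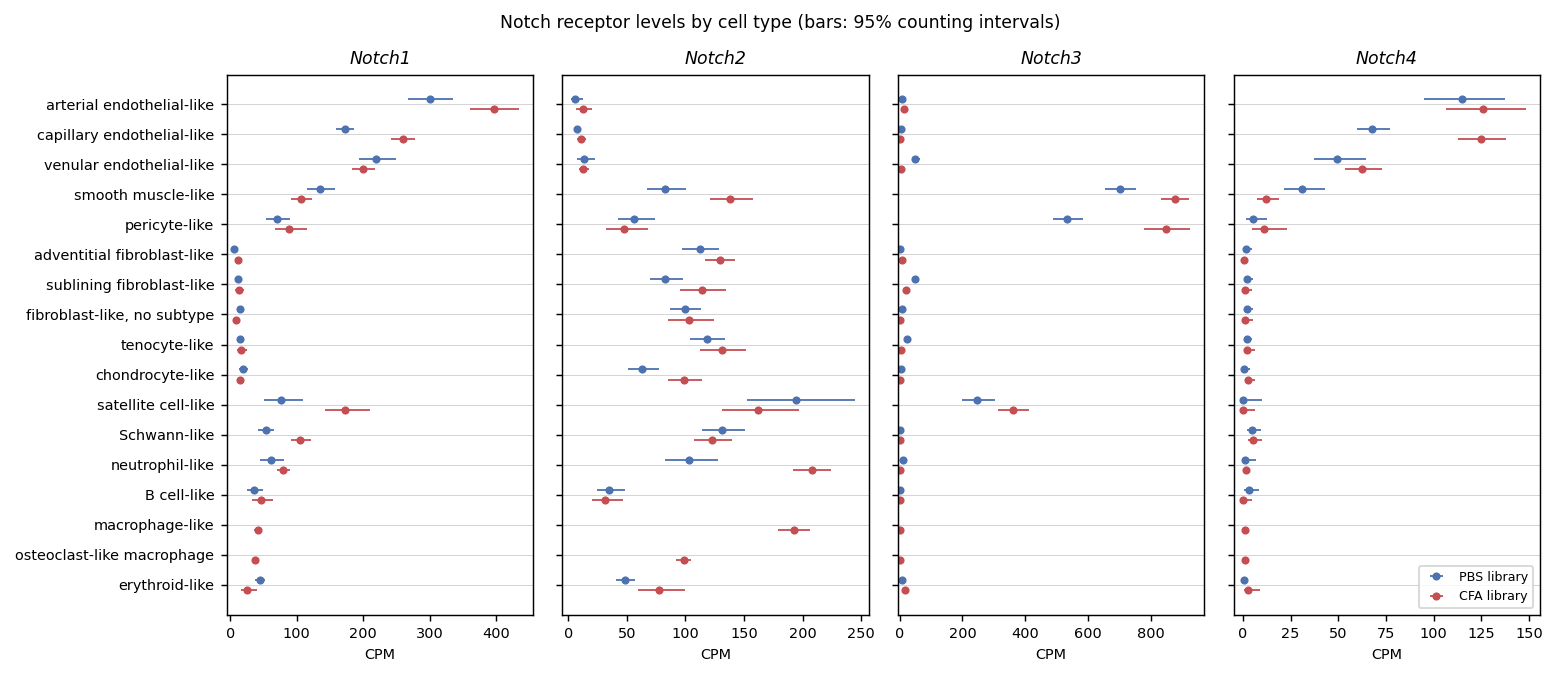
Level of each Notch receptor in CPM (horizontal axes, 1 scale per gene) in 17 cell types (vertical axis), PBS in blue and CFA in red, with exact 95% counting intervals as bars. Notch1 and Notch4 peak in the 3 endothelial rows, Notch3 in smooth muscle-like and pericyte-like cells (533 to 874 CPM) with a lower peak in satellite cell-like cells, and Notch2 is lowest in the endothelial rows and spread over most others.

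Among the receptors, Notch1, the broadly used receptor of endothelium and of many precursor cells, was highest in arterial endothelial-like cells, at 300.3 CPM in the PBS library (interval 268 to 336) and 396 in the CFA library (361 to 434). In the PBS library venular-like cells followed at 219.9 and capillary-like cells at 173 CPM, and these 3 intervals did not overlap. Without cells holding markers of another class, described below, these 2 types were nearer, at 204 (from 115 UMIs) and 182 CPM. In the CFA library capillary-like cells came second at 260.0, and venular-like cells at 200.2 CPM did not differ from satellite cell-like cells at 173 beyond their intervals. Thinning every cell to 1000 UMIs, which removes differences in depth, left a Notch1 UMI in 28.6% of PBS and 30.1% of CFA arterial-like cells, against 0.942% and 1.35% of fibroblast-like cells. Fibroblast-like cells had Notch1 at 10.6 and 11.3 CPM. Neutrophil-like cells, the type set as the background for free RNA, had a Notch1 UMI in 7.35% and 7.40% of thinned cells and a level of 60.8 and 79.4 CPM, above fibroblast-like cells, so that they give no background for this gene. The thinned shares were 3.06% and 9.74% in smooth muscle-like and 5.75% and 7.58% in pericyte-like cells, between those of fibroblast-like and arterial-like cells.

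Notch4, the receptor known for its restriction to endothelium, was measured at 115 (PBS) and 126 CPM (CFA) in arterial-like cells, at 67.9 and 125 in capillary-like cells, and at 49.5 and 62.5 in venular-like cells. The arterial-like cells stood apart from the capillary-like ones in the PBS library only, since in the CFA library the capillary-like interval (113 to 138) lay within the arterial-like one (106 to 148). Outside the endothelium, Notch4 was at 5.43 CPM or less in every other PBS type with a level except smooth muscle-like cells, which had 31.0. As counted, 35.4% of PBS and 40.5% of CFA blood endothelial-like cells held a Notch4 UMI, against 1.39% and 0.852% of neutrophil-like cells.

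Notch3, the receptor of mural cells, was highest in smooth muscle-like cells at 702 (PBS) and 874 CPM (CFA) and next in pericyte-like cells at 533 and 848. The 2 types were apart in the PBS library (intervals 655 to 752 and 487 to 582) and overlapped in the CFA library. As counted, 97.3% of the PBS and 96.4% of the CFA mural-like cells held a Notch3 UMI. Satellite cell-like cells came next at 247 and 359.7 CPM, above every other remaining type with a level. Osteoblast- or osteocyte-like cells, too few for a level, held 4.67% (PBS) and 1.51% (CFA) of the Notch3 UMIs. Endothelial-like cells were far lower, at 13 and 4.34 CPM, with a PBS value of 50.4 CPM in venular-like cells, where the mural marker genes were also high, as described below. Sublining fibroblast-like cells had Notch3 at 48.2 CPM in the PBS and 21.3 CPM in the CFA library, against 2.24 and 6.19 in adventitial-like cells.

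Notch2 showed the opposite distribution to the endothelial receptors. It was at 8.17 (PBS) and 11.6 CPM (CFA) in blood endothelial-like cells, against 98.3 and 121 in fibroblast-like cells and 71.0 and 113 in mural-like cells. Its highest level was in satellite cell-like cells in the PBS library, at 195 CPM. In the CFA library it was highest in neutrophil-like cells at 208 and macrophage-like cells at 193 CPM, whose intervals overlapped. Within the stroma the adventitial-like (112 and 129), tenocyte-like (118 and 131) and Schwann-like cells (131 and 122) had overlapping intervals in each library. Since neutrophil-like cells themselves held a Notch2 UMI in 17.6% and 27.8% of thinned cells, they give no background for this gene, and the endothelial-like cells, at 1.36% and 1.05%, were the lowest of the main classes.

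The stretches before the RefSeq start sites (GRCm38.p6) of Notch3, Notch4 and Dll4 are shown because these genes had most of their UMIs in 1 layer of the vessel wall, mural-like for the first and endothelial-like for the other two. Each is written 5′ to 3′ along the gene's strand and ends where the GENCODE gene begins or at the RefSeq start, whichever comes first. Capitals mark AGGAAG, a 6-letter form of the ETS core, or its reverse complement CTTCCT. They lie at chr17:32166891-32167140 (minus strand), chr17:34564045-34564267 (plus strand) and chr2:119325534-119325783 (plus strand).
Notch3: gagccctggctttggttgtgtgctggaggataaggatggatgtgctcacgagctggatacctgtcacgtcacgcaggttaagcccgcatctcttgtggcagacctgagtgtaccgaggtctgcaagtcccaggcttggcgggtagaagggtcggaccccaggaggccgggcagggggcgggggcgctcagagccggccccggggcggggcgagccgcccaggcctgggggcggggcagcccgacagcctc
Notch4: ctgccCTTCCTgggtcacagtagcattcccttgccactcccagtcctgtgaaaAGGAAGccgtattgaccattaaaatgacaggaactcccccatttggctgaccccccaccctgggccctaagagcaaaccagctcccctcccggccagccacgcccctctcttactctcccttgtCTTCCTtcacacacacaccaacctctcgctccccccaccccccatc
Dll4: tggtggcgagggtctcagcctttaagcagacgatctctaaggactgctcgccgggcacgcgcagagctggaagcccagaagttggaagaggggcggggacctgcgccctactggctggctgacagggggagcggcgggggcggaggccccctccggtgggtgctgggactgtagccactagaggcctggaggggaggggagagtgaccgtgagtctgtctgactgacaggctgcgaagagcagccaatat
This form of the ETS core, which is bound by a family of factors that many endothelial genes use, occurred 3 times in the 250 bases before the Notch4 start. The matches began 245, 197 and 73 bases before it. The same 6 letters occurred in none of the other 6 members for which RefSeq gave a promoter (Notch1, Notch2, Notch3, Dll4, Jag1 and Jag2). In a window of the same length, 29.5% of 32851 mouse promoters held them. Shorter matches were not counted, and the Dll4 stretch holds GGAA outside this form. The RBPJ core TGGGAA (reverse TTCCCA), found in 21.6% of promoters, was in none of the 7 windows. The GATA core AGATAA (9.99% of promoters) and the E-box CACGTG (6.02%) were in none of them either. A match of letters is a description of the window and not a binding site, and the windows are short. In the GENCODE annotation of GRCm38 all 10 are protein-coding genes, with Notch3 at chr17:32120820-32166852 (minus), Notch4 at chr17:34564268-34588503 (plus) and Dll4 at chr2:119325784-119335962 (plus).

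**Figure D3:**
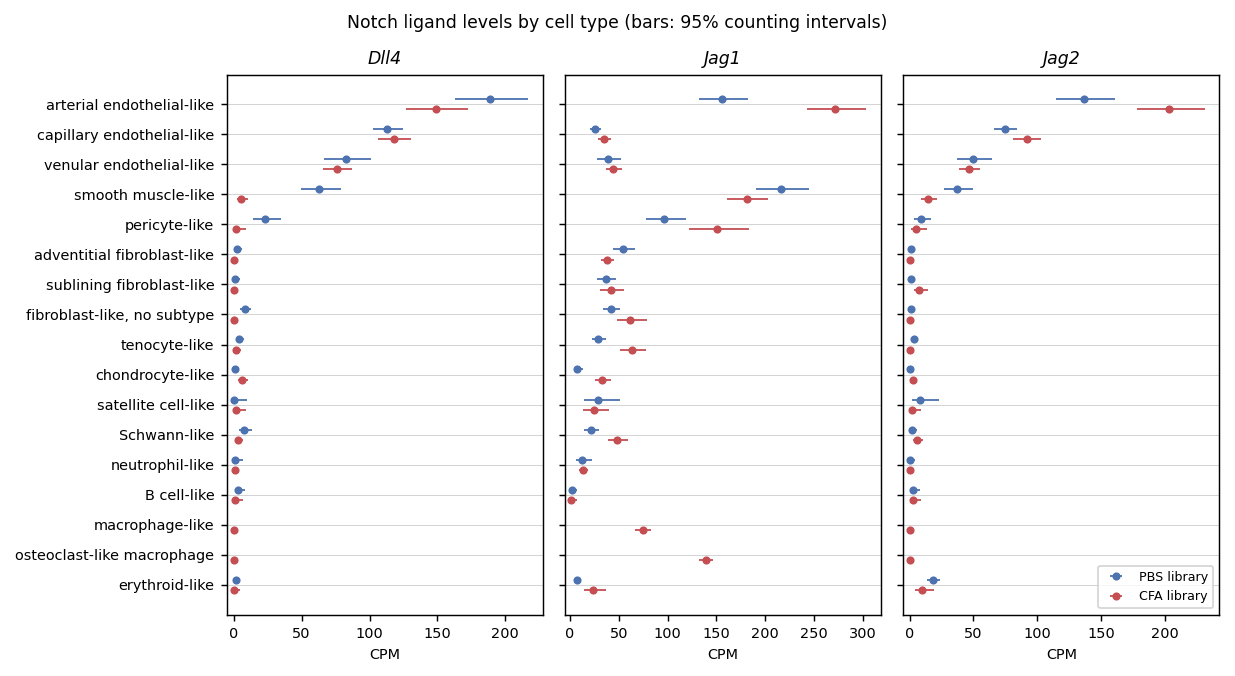
Level of each Notch ligand in CPM (horizontal axes, 1 scale per gene) in 17 cell types (vertical axis), PBS in blue and CFA in red, with exact 95% counting intervals as bars. Dll4 and Jag2 peak in the endothelial rows and Jag1 in arterial-like, smooth muscle-like and pericyte-like cells, with a further peak in CFA osteoclast-like macrophages at 139 CPM.

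Of the ligands, Dll4, the ligand of arterial and sprouting endothelium, followed an arterial to venular order in both libraries. It was at 188 (PBS) and 149 CPM (CFA) in arterial-like, 113 and 118 in capillary-like, and 82.5 and 76.0 in venular-like cells. Arterial-like and capillary-like cells were apart in the PBS library but overlapped in the CFA library. Dll4 UMIs were in 45.3% and 36.3% of blood endothelial-like cells as counted, and in 1.39% and 0.852% of neutrophil-like cells.

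Jag2 followed the same order, at 136 (PBS) and 203 CPM (CFA) in arterial-like, 74.5 and 91.6 in capillary-like, and 49.5 and 46.4 in venular-like cells. The steps between these 3 types were each wider than the intervals in the CFA library. Without cells holding markers of another class, described below, PBS capillary-like and venular-like cells were close, at 76.7 and 72.7 CPM. The venular-like value then rested on 41 UMIs. Outside the endothelium, Jag2 was low in fibroblast-like cells, at 1.30 and 1.76 CPM.

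Jag1, the ligand that links endothelium to the smooth muscle layer, was spread over both. In the PBS library it was highest in smooth muscle-like cells at 217 CPM, followed by arterial-like cells at 156 and pericyte-like cells at 96.6, with no overlap between neighbours. Without cells holding markers of another class, described below, the order was the same. The levels were then nearer, at 190, 131 (from 95 UMIs) and 109 CPM (from 58 UMIs). Arterial-like cells led the CFA library at 272, and smooth muscle-like (181) and pericyte-like cells (151) overlapped. Capillary-like (25.6 and 34.6) and venular-like cells (38.5 and 44.5) stayed low, so that the arterial to capillary ratio was 6.11 (4.70 to 7.97) in the PBS and 7.87 (6.31 to 9.88) in the CFA library. Fibroblast-like cells had 42.5 and 42.7 CPM. In the CFA library osteoclast-like macrophages had Jag1 at 139 CPM and macrophage-like cells 74.5, and these held 41.4% and 9.38% of that library's Jag1 UMIs.

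**Figure D4:**
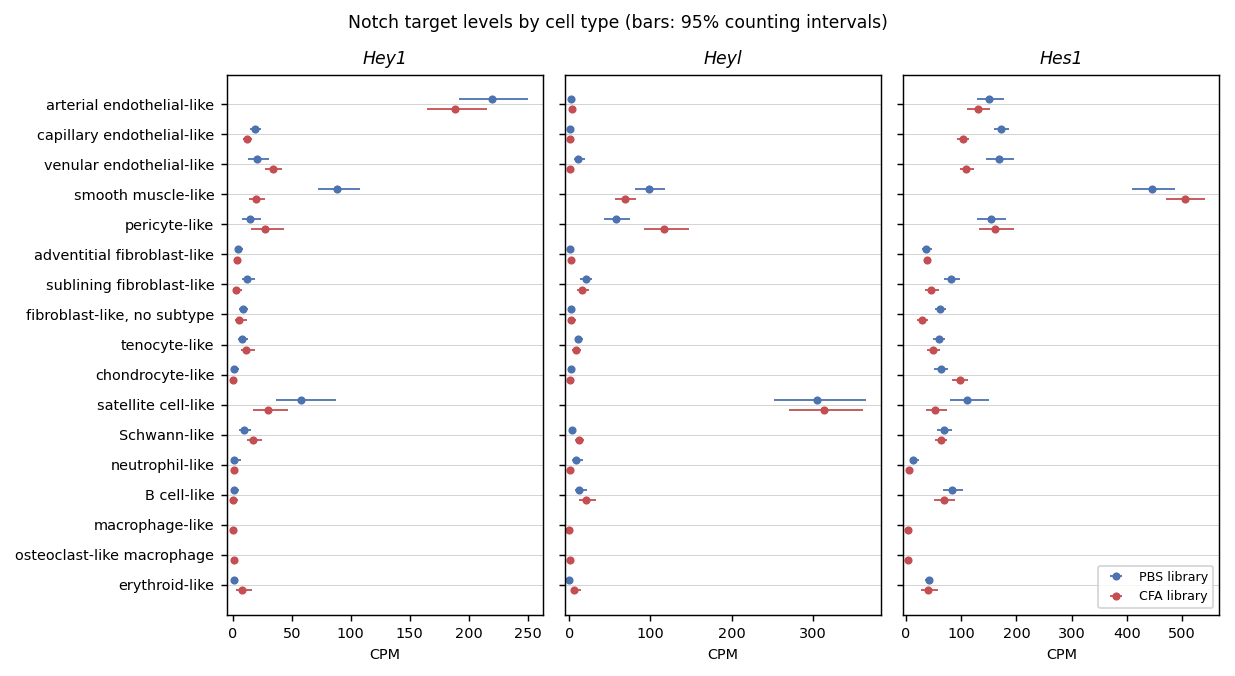
Level of Hey1, Heyl and Hes1 in CPM (horizontal axes, 1 scale per gene) in 17 cell types (vertical axis), PBS in blue and CFA in red, with exact 95% counting intervals as bars. Hey1 peaks in arterial-like cells (219.8 and 189 CPM), Heyl in satellite cell-like cells (305 and 314) and then in mural-like cells, and Hes1 in smooth muscle-like cells (446 and 505).

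The target genes separated by layer. Hey1, a repressor known for arterial identity, was at 219.8 (PBS) and 189 CPM (CFA) in arterial-like cells but at 19.0 and 11.7 in capillary-like and 20.2 and 34.1 in venular-like cells. Its arterial to capillary ratio was 11.6 (8.82 to 15.4) in the PBS and 16.1 (11.3 to 23.4) in the CFA library. Heyl, the Hey family member of mural and muscle precursor cells, was at 98.1 and 68.5 CPM in smooth muscle-like cells, 57.6 and 117 in pericyte-like cells, and 3.13 and 1.16 in blood endothelial-like cells. Its highest level was in satellite cell-like cells, at 305 (252 to 366) and 314 (271 to 362) CPM.

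Hes1, a repressor that answers Notch and other signals, was at 28.7 CPM or more in every type with a level except neutrophil-like, macrophage-like and osteoclast-like cells. It was highest in smooth muscle-like cells, at 446 and 505 CPM, and the next types were at 173 (capillary-like, PBS) and 162 (pericyte-like, CFA) with no overlap. Smooth muscle-like cells exceeded pericyte-like cells 2.92-fold (2.42 to 3.54) in the PBS and 3.13-fold (2.54 to 3.88) in the CFA library. Hes1 was lowest in PBS neutrophil-like cells (13.4), and in the CFA library in macrophage-like (3.73), osteoclast-like (4.42) and neutrophil-like cells (4.52), whose intervals overlapped.

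Some cells of the vessel wall held markers of a neighbouring class. The 8 endothelial markers summed to 1644 CPM in PBS mural-like cells and 602 in CFA mural-like cells, with all 8 higher in the PBS library and none at 0, against 8641 and 8005 in blood endothelial-like cells. The mural markers summed to 380 and 184 CPM in blood endothelial-like cells, and to 930.1 and 277 in venular-like cells. As an alternative chosen after the data were seen, mural-like cells with UMIs of 2 or more endothelial markers, endothelial-like cells with 2 or more mural markers, and fibroblast-like cells with 2 or more endothelial or 3 or more mural markers were left out. That removed 53 of 185 PBS and 31 of 222 CFA mural-like cells, 108 of 749 and 60 of 1051 blood endothelial-like cells, and 97 of 535 and 35 of 380 fibroblast-like cells. The removed mural-like cells were deeper, with medians of 17099 and 14622 UMIs against 7229 and 8541 in those left. Endothelial markers in mural-like cells were then at 55.4 and 50.3 CPM.

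Comparisons between cell types were read against all genes with at least 50 UMIs in the pair of types. From arterial-like to capillary-like cells, 2 of 7 tested members in the PBS library (Jag1 and Hey1) were at least 2-fold higher in arterial-like cells, against a background of 3.39% of 8264 genes. In the CFA library it was 3 of 7 (Jag1, Jag2 and Hey1), against 5.63%. No member was at least 2-fold lower in arterial-like cells, as were 4.55% and 5.75% of genes. From arterial-like to venular-like cells, 5 of 8 in the PBS (Notch4, Dll4, Jag1, Jag2 and Hey1; background 5.04%) and 4 of 7 in the CFA library (Notch4, Jag1, Jag2 and Hey1; background 6.04%) were higher, and Dll4 in the CFA library was just under the limit at 1.96 (1.59 to 2.41). Only Notch3 in the PBS library was lower in arterial-like than in venular-like cells, at a ratio of 0.136 (0.0524 to 0.30), against a background of 7.31% of genes, and none was in the CFA library (background 7.96%). Without the mixed cells the genes past the limit against capillary-like cells were the same in both libraries. Against venular-like cells, Notch4 (1.94) and Jag2 (1.85) were then under the limit in the PBS library and Dll4 was past it in the CFA library (2.02), and Notch3 had 1 UMI in PBS arterial-like and 0 in 52 PBS venular-like cells, so that its call was lost.

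From mural-like to fibroblast-like cells, 9 of 10 tested members in the PBS library (background 11.6%) and 6 of 7 in the CFA library (background 11.9%) were at least 2-fold higher in mural-like cells. The steepest of them was Notch3, at 34.4-fold (28.4 to 42.1) and 105-fold (78.6 to 143), and at 62.4-fold (47.7 to 83.1) and 140.0-fold (98.8 to 205) without the mixed cells. Fibroblast-like Notch3 went from 18.2 (PBS) and 8.26 CPM (CFA) to 11.9 and 6.66 in that step. Since the step left out fibroblast-like cells partly by their mural markers, the second pair of ratios is not a separate check. The exception in both was Notch2, at ratios of 0.723 and 0.935, and no member was at least 2-fold lower (backgrounds 13.9% and 16.8%). Without the mixed cells Notch1, Notch3, Jag1, Heyl and Hes1 were still past the limit in both libraries. Notch4, Dll4, Jag2 and Hey1 then had too few UMIs for a reading in either library, and PBS Hey1 was at 6.92 CPM in mural-like and 6.26 in fibroblast-like cells.

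The smooth muscle-like and pericyte-like cells differed less evenly. In the PBS library 5 of 9 members were at least 2-fold higher in smooth muscle-like cells (Dll4, Jag1, Jag2, Hey1 and Hes1, background 7.01%), and in the CFA library 2 of 6 (Notch2 at 2.91 and Hes1, background 8.82%). Of the PBS calls, only that of Hes1 held without the mixed cells, at 3.09 (2.42 to 3.97). Jag1 was then at 1.75 (1.27 to 2.44), Dll4 and Jag2 had 0 UMIs in both types, and Hey1 had 3 UMIs in smooth muscle-like and 5 in pericyte-like cells, or 4.83 and 9.36 CPM. Both CFA calls held, Notch2 at 3.04 and Hes1 at 3.70.

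From blood endothelial-like to mural-like cells, 3 of 10 in the PBS library were higher (Notch4, Dll4 and Jag2, background 14.8%) and 4 lower (Notch2, Notch3, Jag1 and Heyl, background 12.9%). In the CFA library Notch1 and Hey1 were past the limit as well to make 5 higher (background 19.1%), and Hes1 to make 5 lower (background 14.3%). This difference between the libraries was not seen without the mixed cells, where Notch1 (3.71, 2.88 to 4.86), Hey1 (8.80, 4.40 to 20.6) and Hes1 (0.455, 0.401 to 0.516) were past the limit in the PBS library too, and the same 5 genes were higher and the same 5 lower in both libraries. That step left out cells of each class by markers of the other, so these ratios are not a separate check.

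The ratio of the CFA to the PBS library answers how the levels differed between the injected joints, and members are named below as higher or lower when they were past 1.5-fold.

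**Figure D5:**
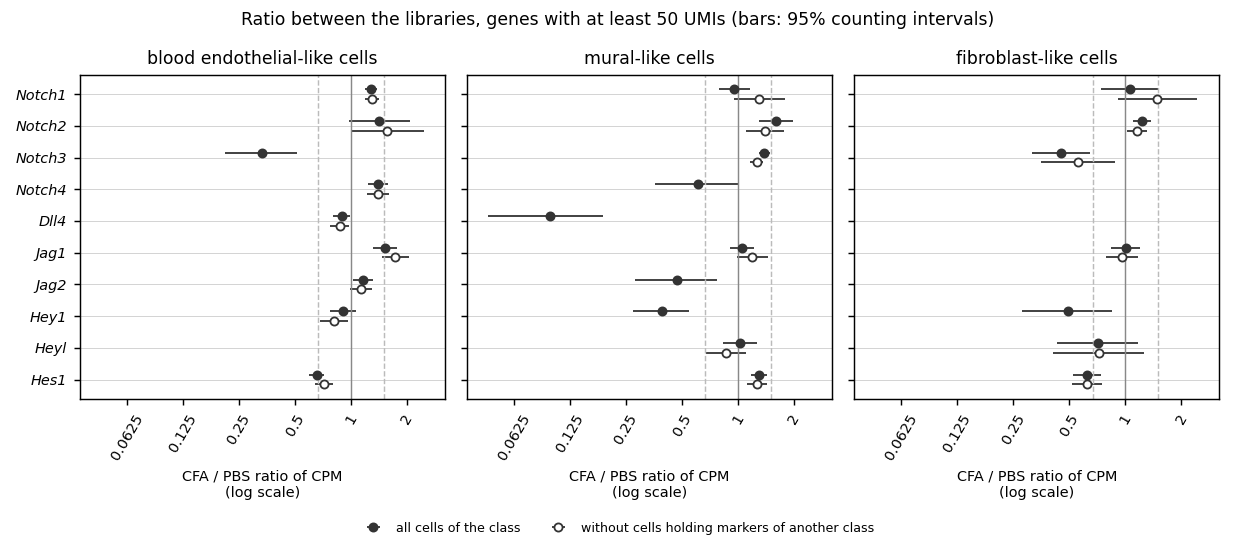
CFA to PBS ratio of CPM (horizontal axes, log scale) for each gene (vertical axis) with at least 50 UMIs in the class, with exact 95% counting intervals as bars. Filled points are all cells of the class and open points leave out cells holding markers of another class, solid lines mark a ratio of 1 and dashed lines 1.5-fold either way. Dll4, Jag2, Notch4 and Hey1 lie low in mural-like cells as filled points only, whereas Hes1 lies below 1 in blood endothelial-like and fibroblast-like cells with both.

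In blood endothelial-like cells 9 members had enough UMIs, of which 1 was higher in the CFA library (background 9.77% of 10826 genes) and 2 were lower (background 11%). Jag1 was higher at 1.52-fold (1.32 to 1.76), with 51.1 (PBS) and 77.8 CPM (CFA), and 1.73-fold (1.46 to 2.06) without the mixed cells, where Notch2, at 7.58 and 11.8 CPM, was the only other member past the limit (1.56, 1.02 to 2.45). With other settings it was under 1.5-fold in 4 of 15, at 1.36 without the hemoglobin limit, 1.49 with at least 1000 genes, 1.21 with each cell classed alone and 1.496 with each cell weighted equally, so that this call depends on the processing. By subtype it was at 1.74 (1.44 to 2.12) in arterial-like cells, 1.35 (1.02 to 1.80) in capillary-like and 1.16 (0.806 to 1.69) in venular-like cells, so that only the arterial-like cells were past the limit. Without the mixed cells the arterial-like ratio was 2.17 (1.72 to 2.78). Osteoclast-like macrophages, rich in Jag1, were nearly all in the CFA library, and their 7 markers summed to 3.93 (PBS) and 41.7 CPM (CFA) in arterial-like cells, against 4772 in the CFA osteoclast-like macrophages themselves. Their part in the result was not tested.

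Hes1 was lower, at 168 (PBS) and 109.8 CPM (CFA) (0.653, 0.593 to 0.719), in capillary-like (0.596) and venular-like cells (0.648), while arterial-like cells were at 0.857 (0.679 to 1.08). Without the mixed cells the ratio over all blood endothelial-like cells was 0.715, no longer past 1.5-fold. A list of 12 immediate early stress genes, which tissue digestion is known to raise, summed to 10956 (PBS) and 7786 CPM (CFA) in the same cells, with 4 of 12 higher in the CFA library. Their part in the Hes1 ratio was not tested. The other lower member was Notch3, at 0.333 (0.210 to 0.514), and without the mixed cells it had only 7 PBS and 3 CFA UMIs.

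The remaining endothelial members were within 1.5-fold, except that Notch4 was at 1.65 when each cell was weighted equally. Notch1 was at 1.27 (1.18 to 1.37), Notch4 at 1.40 (1.24 to 1.58), Jag2 at 1.15 (1.02 to 1.30), Dll4 at 0.891 (0.802 to 0.989) and Hey1 at 0.906 (0.775 to 1.06). Both receptors were past the limit in capillary-like cells, Notch4 at 1.84 (1.57 to 2.17) and Notch1 at 1.5 (1.35 to 1.67), where Hey1 was lower at 0.619 (0.403 to 0.936) and Hes1 at 0.596 (0.520 to 0.683). These were 2 of 8 tested members higher and 2 lower, against 12.3% and 16.7% of genes in capillary-like cells. Each of the 3 capillary-like clusters had more Notch4 in the CFA than in the PBS library, at 67.5 and 140.2, 74.9 and 114, and 53.1 and 122 CPM. Without the mixed cells Notch4 was at 1.87, Hey1 at 0.572 and Hes1 at 0.645, and Notch1 was inside the limit at 1.45. Arterial-like cells had 1 of 7 past the limit upward (Jag1, background 13.3%) and none downward (background 13.1%), and without the mixed cells Jag2 was past it as well, at 1.52 against 1.49 with them. Venular-like cells had 1 of 8 upward (Hey1 at 1.69, background 10.3%) and 2 downward (Hes1 and Notch3, background 10.3%), and without the mixed cells none of 7 was past it.

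In mural-like cells all 10 members were tested, with 1 higher (background 7.98% of 8677 genes) and 4 lower (background 10.4%). The 4 lower members were those of the endothelium, Dll4 at 45.1 (PBS) and 4.41 CPM (CFA), Jag2 at 24.5 and 11.5, Notch4 at 19.7 and 11.9, and Hey1 at 55.7 and 21.6. Most of these UMIs lay in the cells with endothelial markers. Without those, Dll4, Notch4 and Jag2 had 0 UMIs in 132 PBS mural-like cells, which allows up to 2.59 CPM, and 1, 1 and 2 UMIs in 191 CFA cells, and Hey1 had 8 and 20 UMIs, or 6.92 and 11.4 CPM. The higher member was Notch2 (1.59, 1.29 to 1.96), which was at 1.39 (1.10 to 1.77) without the mixed cells, so that none of the 6 members still tested was past the limit. Notch1 in mural-like cells went from 107 and 101 to 55.4 and 72 CPM in the same step.

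The other mural members were within 1.5-fold. Notch3 was at 627 (PBS) and 867 CPM (CFA), a ratio of 1.38 (1.29 to 1.48), and at 743 and 933 without the mixed cells, a ratio of 1.26 (1.16 to 1.37). With log-normalized counts the ratio over all mural-like cells was 1.51. By type it was at 1.25 (1.14 to 1.36) in smooth muscle-like and 1.59 (1.40 to 1.80) in pericyte-like cells. In cells thinned to 1000 UMIs the share with a Notch3 UMI was 55.7% PBS and 56.4% CFA, so that no order between the libraries is read from it. Heyl was at 80.2 and 82.1 CPM (1.02, 0.826 to 1.27), made up of a lower level in CFA smooth muscle-like cells (0.698, 0.533 to 0.915) and a higher one in CFA pericyte-like cells (2.04, 1.41 to 2.96). Hes1 was at 1.29 (1.17 to 1.43) and Jag1 at 1.05 (0.909 to 1.22).

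In pericyte-like cells 3 of 6 tested members, Notch3, Jag1 (1.56, 1.15 to 2.10) and Heyl, were higher in the CFA library, against 12.9% of 5336 genes. With the mixed cells left out, the 3 past the limit were Notch1 (1.51, 0.866 to 2.65), Jag1 (1.62, 1.14 to 2.32) and Heyl (1.93), and Notch3 was at 1.33. These rest on 87 PBS and 66 CFA cells, and without the mixed cells on 65 and 57, with 25 and 32 Notch1 UMIs. The 8 fibroblast markers summed to 6756 (PBS) and 5327 CPM (CFA) in pericyte-like cells, against 1246 and 1518 in smooth muscle-like cells. Fibroblast markers were not used to leave out mural-like cells, and their part in the ratios was not tested. In smooth muscle-like cells Notch2 was the only higher member of 10 (1.67, 1.31 to 2.15, background 8.9%), with 82.6 (PBS) and 138 CPM (CFA), and 4 were lower (background 11.5%), Notch4, Dll4, Jag2 and Hey1. Without the mixed cells Notch2 was at 1.35 (1.03 to 1.80), and Heyl, at 0.548 (0.405 to 0.743), was the only one of 6 past the limit. In smooth muscle-like cells the 9 neutrophil markers summed to 94.6 (PBS) and 3265 CPM (CFA), all 9 higher in the CFA library, against 217518 in CFA neutrophil-like cells, which had Notch2 at 208 CPM. Their part in the Notch2 ratio was not tested.

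In fibroblast-like cells, 7 members had enough UMIs, none was higher (background 11.3% of 11456 genes) and 3 were lower (background 10.5%). Hes1 was at 62.2 (PBS) and 38.7 CPM (CFA) (0.622, 0.525 to 0.736), and at 0.621 without the mixed cells, where Notch3 (0.560) was the other lower member of 6 tested. With other settings Hes1 was inside the 1.5-fold limit in 7 of 15, at ratios from 0.668 to 0.850, the last with each cell classed alone, so that this call too depends on the processing. As clustered here it was lower in sublining-like cells (0.558, 0.399 to 0.771) and in those of no subtype (0.466, 0.306 to 0.689) but not in adventitial-like cells (1.06, 0.776 to 1.45). No member was higher in any of these 3 subtypes (backgrounds 18.1%, 9.25% and 13.2%), and the lower ones were 2 of 5 (Notch3 and Hes1, background 13.1%), 1 of 3 (background 10.4%) and 0 of 3 (background 10.8%) tested. The thinned share with a Hes1 UMI was 4.52% PBS and 4.86% CFA, which does not follow the order of the levels. The stress genes summed to 13793 (PBS) and 9955 CPM (CFA) in sublining-like cells and to 10827 and 10482 in adventitial-like cells, and their part in the Hes1 ratio was not tested. Notch3 was at 18.2 and 8.26 CPM (0.453, 0.315 to 0.643) and Hey1 at 7.49 and 3.69 (0.493, 0.280 to 0.843), both low levels in cells whose mural markers summed to 595 (PBS) and 344 CPM (CFA). Notch2 was at 1.23 (1.10 to 1.37) and Jag1 at 1.01 (0.841 to 1.20).

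Outside the vessels and fibroblasts, members past 1.5-fold were found in 5 further types. Tenocyte-like cells had Jag1 higher (2.20, 1.57 to 3.10, background 9.69%) and Notch3 lower (0.151, 0.0469 to 0.376, background 9.51%) of 5 tested. Chondrocyte-like cells had 3 of 4 higher (background 10.7%) and none lower (background 14.2%), namely Jag1 (4.48, 2.34 to 9.43, from 11 PBS UMIs), Notch2 (1.56) and Hes1 (1.56). Schwann-like cells had Notch1 (1.98, 1.52 to 2.60) and Jag1 (2.24, 1.48 to 3.44) higher of 4 (background 12.7%) and none lower (background 6.4%). Satellite cell-like cells had Notch1 higher (2.27, 1.49 to 3.55, background 15.1%) and Hes1 lower (0.474, 0.289 to 0.768, background 15.6%) of 5, and neutrophil-like cells had Notch2 higher (2.01, 1.60 to 2.55, background 16.6%) and none lower (background 20.8%) of 3. The neutrophil-like class was made of different clusters in the libraries, since the cluster led by Stfa2l1, Retnlg and Cxcr2 held 19 of 72 PBS and 184 of 352 CFA cells, and the one led by Camp, Ngp and Ltf held 45 and 147. Notch2 was at 249.7 (PBS) and 528 CPM (CFA) in the first and at 63.8 and 117 in the second. None of 3 was past the limit in B cell-like cells (backgrounds 7.34% and 7.55%). Jag1 was thus higher in each of the first 3 types, and markers of other cells also differed in the Schwann-like and tenocyte-like ones. The macrophage markers summed to 1539 (PBS) and 8568 CPM (CFA) in Schwann-like cells, but the highest single marker alone was at 1537 and 8528. The neutrophil markers summed to 78.8 and 4293 in tenocyte-like cells. In chondrocyte-like cells the osteoclast-like markers summed to 199 and 203 and the stress genes to 4233 and 8591, with 10 of 12 stress genes higher in the CFA library, and in satellite cell-like cells 11 of 12 were. The part of these genes in the ratios was not tested. Hey1 had a further source in an unnamed cluster led by Dok6, Gpc5 and Plppr1, with 35.6 CPM in 37 PBS cells and 142 in 83 CFA cells, and the unnamed clusters held 25.1% of the CFA library's Hey1 UMIs.

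The other 53 genes of the pathway were read in the same way. In blood endothelial-like cells, 41 had enough UMIs, 2 were higher (background 9.77%) and 5 lower (background 11%), with a median ratio of 1.10 against 1.01 over all genes. In mural-like cells 1 of 38 was higher (background 7.98%) and 2 lower (background 10.4%; median 0.987, all genes 0.993), and in fibroblast-like cells none of 39 was higher (background 11.3%) and 6 were lower (background 10.5%; median 1.01, all genes 0.996). The share of lower genes was thus near the background in blood endothelial-like cells and above it in fibroblast-like cells, and the other shares were below it. None of the 11 genes of the nuclear complex, Rbpj among them, was past 1.5-fold in any of these classes, and of the gamma-secretase and sheddase genes only 1 of 8 was, lower in fibroblast-like cells. By the rule for naming the extremes, the highest endothelial ratios were those of Lfng, a glycosyltransferase that modifies Notch receptors (1.68, 1.30 to 2.19), and the repressor Bcl6 (1.61, 1.18 to 2.21). The lowest were those of the mural genes Pdgfrb (0.0832, from 19.1 to 1.59 CPM) and Gucy1a1 (0.323), in the same cells whose mural markers were lower in the CFA library.

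In mural-like cells the target Hey2 (1.51, 1.08 to 2.13) and Gucy1a1, a subunit of the nitric oxide receptor (1.38, 1.28 to 1.5), were highest. Dlk1, a ligand-like protein that lacks the receptor-binding domain, was lowest, at 38.4 (PBS) and 4.41 CPM (CFA) (0.115, 0.0531 to 0.222), followed by Id1, a target of BMP signalling, at 0.521 (0.462 to 0.587). Dlk1 and Id1 were also lowest in fibroblast-like cells, at 0.146 (0.0823 to 0.243) and 0.260 (0.206 to 0.325), where Kat2b (1.41) and Bcl6 (1.36) were highest. Among the 11 other targets, 3 of 7 tested were lower (background 11%) and 1 higher (background 9.77%) in blood endothelial-like cells. The lower ones there included the mural genes Pdgfrb and Gucy1a1 named above, so this count does not describe endothelial targets alone. In fibroblast-like cells 3 of 6 were lower (background 10.5%) and none higher (background 11.3%).

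The genes with the most similar distributions were sought over 32 profiles, each a cell type in a library with at least 50 cells, among 13085 genes. These correlations of log2 levels describe profiles that share libraries and have no test. Notch4 followed Gata2 (r = 0.987), Gpr4 (0.987) and Kif26a (0.986), and Dll4 followed the endothelial receptor Tie1 (0.974), which was also a naming marker, Ccm2l (0.971) and Adcy4 (0.971). Jag2 followed Gata2 (0.966), Thrsp (0.963) and Depp1 (0.962). Notch3 followed the adrenergic receptor Adra1a (0.948), Ppp1r14a (0.928) and Cap2 (0.922), and Heyl followed Col19a1 (0.933), the muscle filament gene Des (0.899, a naming marker) and Notch3 itself (0.870). Hey1 followed Mannr (0.841), the arterial marker Sema3g (0.818) and Ier5l (0.809), Hes1 followed Mprip (0.894), B230219D22Rik (0.846) and Zbtb10 (0.838), and Notch1 followed Cdk17 (0.909), Ggta1 (0.846) and Map3k11 (0.841). Notch2 followed Bcl6 (0.871) and Cd63 (0.838), and Jag1, the least matched, followed Tmem178 (0.789), Dbndd2 (0.786) and Mical2 (0.782).

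Among the members themselves, Notch4, Dll4 and Jag2 were the closest (r between 0.932 and 0.965), and Notch3 with Heyl was the closest pair outside the endothelium. Notch2 ran against Notch4 (-0.82), Dll4 (-0.82) and Jag2 (-0.81) over the same profiles.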

How the data were processed

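Single-cell RNA of the mouse TMJ was measured in 1 PBS and 1 CFA library. The authors deposited UMI counts per gene and barcode, made with Cell Ranger 7.0.1 on mm10 per the submitters' processing notes. The kit version and the digestion steps differ between the labels and the methods. Barcodes with at least 500 genes, at most 10% mitochondrial and at most 1% hemoglobin UMIs were kept. Cells were normalized with sctransform 0.4.2 and integrated and clustered in Seurat 5.3.0 (R 4.3.3; 200 principal components, resolution 1.5) on 2981 of 3000 genes, without the 10 members and the 53 pathway genes. A cluster was named when at least 3 markers of its class were detected, unless its cells had few UMIs for their samples and none of the class's markers led it, or markers of another class led it. These exceptions left unnamed 1 cluster with endothelial and 1 with monocyte markers. The members and all lists were chosen with earlier results of these data known.

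Levels are CPM of the summed counts with exact Poisson intervals, shares have exact Clopper-Pearson intervals, and ratios have conditional exact intervals (scipy 1.17.1), all at 95%. Ratios were read for genes with at least 50 UMIs in both groups together, against 1.5-fold between libraries and 2-fold between cell types, with a floor of 3 counts where a gene had none. In a simulation of the endothelial comparison over 10826 genes, 97% of 200 genes changed 2-fold and 1.73% of unchanged genes were past 1.5-fold. Of the intervals, 95.7% held the true value. The simulation checks the counting intervals and says nothing of variation between animals or libraries. All 10 members were described, and of the pathway list the genes with the highest and lowest ratios in each class were named, 2 of each. Likeness was Pearson's r of log2 levels, with the 3 most similar genes named for each member, except that 1 gene is not reported here. Doublets were kept, and an alternative removed the 5% of cells with the highest Scrublet scores (134 PBS and 201 CFA cells). Gene positions are from GENCODE M21 (GRCm38). Of the alternatives, 3 were added after seeing the data.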

Additional observations from a re-analysis of the deposited data

How the results depend on the processing

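With 1 library per condition no replicate could be left out, and counting depth was the only error available. No paired analysis was possible because each condition had 1 library. Of 170 values recomputed under other settings for 16 results, 162 stayed within the counting interval of the reported value, 8 moved and 0 reversed. Weighting each cell equally moved the endothelial Notch4 ratio to 1.65 and that of Hey1 to 0.710, and the mural Notch3 ratio to 1.27. Classing each cell alone moved endothelial Jag1 to 1.21 and fibroblast Hes1 to 0.850. Equal weight per subtype moved endothelial Jag2 to 1.31. Mural Notch3 was at 1.51 with log-normalized counts and at 1.26 without cells holding markers of another class. The 1.5-fold limit was crossed by endothelial Jag1 in 4 of 15 settings, fibroblast Hes1 in 7, and mural Notch3 and endothelial Notch4 in 1 each. The causes were not tested.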
